A study of Mus musculus with 8 samples.

Results

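The 47 genes described here encode the machinery that carries fatty acids into mitochondria and oxidises them, together with the enzymes of branched-chain amino acid breakdown, of pyruvate entry and of the citrate cycle. They were taken by symbol from a given list of these enzymes and transporters, through their Ensembl identifiers without version. All 47 were found among the 34866 genes of the table, and 46 of them held enough counts to be tested. The RNA came from the epididymal fat pad, a visceral white adipose depot, of male mice. In the 4 control libraries both copies of the aromatase gene Cyp19a1 carried loxP sites (Aromatase flox/flox), and the 4 knockout libraries (aP2-Cre;Aromatase flox/flox) had the same alleles plus a Cre recombinase transgene. Aromatase converts androgens into oestrogens. The aP2 promoter drives Fabp4, which encodes a lipid-binding protein of fat cells, and its activity is not limited to adipocytes. No group with the transgene alone was analysed here. The labels give no age and do not say whether each library is a separate animal, so p-values measure the spread between these samples, which may be technical. The libraries were made to look for genes downstream of Cyp19a1 in fat with a part in phosphorus metabolism, a question the genes below were not chosen for.

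Long-chain fatty acids cross the mitochondrial membranes as carnitine esters, are shortened in repeated rounds of beta-oxidation, and yield acetyl-CoA, which enters the citrate cycle beside acetyl-CoA from pyruvate and from branched-chain amino acids. In white adipocytes part of the citrate leaves the mitochondrion again and supplies carbon for fatty acid synthesis. Peroxisomes hold a second, partly separate set of beta-oxidation enzymes.

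Values are CPM, a gene's count per 1000000 counts of its library, with the library total scaled by trimmed mean of M values (TMM) factors. Library totals ranged from 1538427 to 3053565 estimated counts, and 3 counts, the limit that a count of 0 allows, correspond to 0.975 to 1.90 CPM. Cyp19a1 itself had 0 to 5.02 estimated counts per library and was not tested, so the deletion could not be checked. All 10 white adipocyte markers were detected, among them Adipoq at 2110 to 3814 CPM, while the epididymal genes Crisp1, Defb20 and Lcn5 were at 0 in all 8 libraries. Another epididymal gene, Adam7, was at 8.53 CPM in knockout replicate 3, 3.77 CPM in control replicate 2 and no more than 0.641 CPM elsewhere. Spink8, also on that list, was at no more than 0.641 CPM in any library. The share of counts on genes of the mitochondrial genome was 11.3% ± 0.814 for controls and 9.32% ± 0.589 for knockouts (SD, n = 4; two-sided exact permutation p = 0.0286, the smallest that 4 against 4 allows). Control replicate 4 was the smallest library.

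None of the 46 tested genes passed an adjusted p of 0.05, but most lay lower in the knockout libraries. By edgeR's quasi-likelihood test, 0 of 46 passed, where 0.168% of all 12480 tested genes did and 0.0481% did so as lower, and DESeq2 and limma-voom also called 0 of the 46. The log2 fold change, knockout over control, was below 0 for 39 of the 46 genes, or 84.8%, against 50.3% of all tested genes. Its median was -0.16, where the median of all tested genes was -0.001. Single genes ranged from -1.14 for Ehhadh to 0.26 for Cpt1a. The 5 genes with an unadjusted p under 0.05 were Ehhadh, Bckdha, Mdh1, Acads and Slc25a1, all lower in the knockout group; that is 10.9% of the 46 tested, where 2.87% of all tested genes were lower and 6.39% were either way at that level. No gene of the set was higher at that level, where 3.52% of all tested genes were. The shares of all tested genes at that level come from the main fit alone, so none stands beside the counts that follow. The number of genes of the set at that level was 4 with DESeq2 and 9 with limma-voom. It was 9 without control replicate 2, 3 without control replicate 3, 9 without control replicate 4, 11 without knockout replicate 1 (10 lower, and Cpt1a higher), 3 without knockout replicate 2, 2 without knockout replicate 3 and 9 without knockout replicate 4. Ehhadh and Bckdha kept an unadjusted p under 0.05 in each of the 16 settings run, Mdh1 in 13, Slc25a1 in 12 and Acads in 9.

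**Figure D1:**
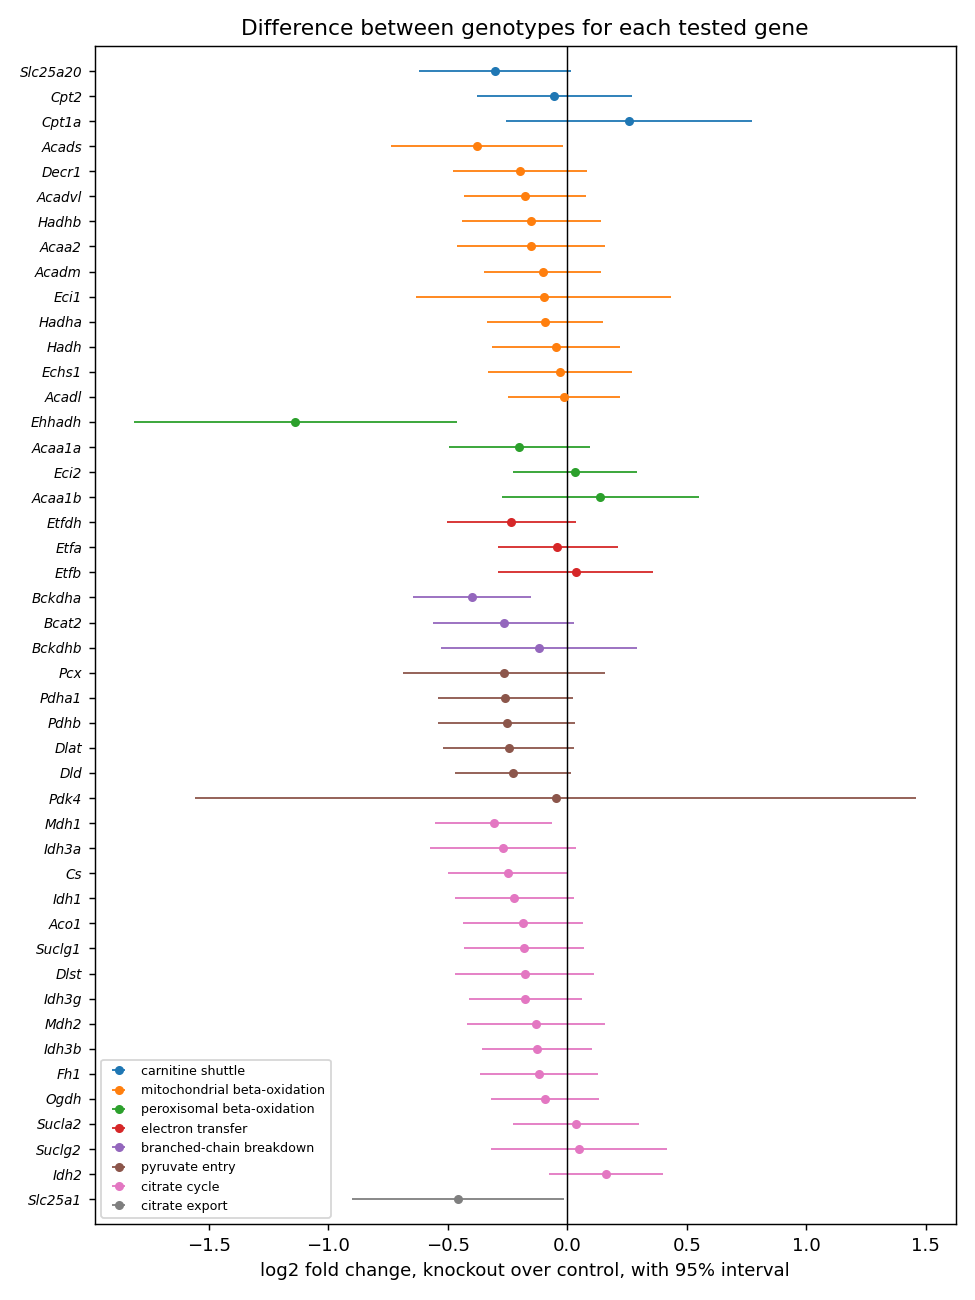
Log2 fold change of knockout over control (x axis) for each of the 46 tested genes, coloured by step, with 95% intervals from the edgeR fit. Points left of 0 are lower in the knockout libraries; 39 of 46 lie there, and the interval spans 0 for 41 of the 46.

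Promoter sequence offered a view that used no counts. RefSeq windows of 300 bases (250 before and 50 after the start, GRCm38.p6) matched 43 of the 47 genes, and the sequences below are the 250 bases before the RefSeq start of the 3 genes with the smallest p and of Hadhb. Hadhb and Hadha lie head to head on opposite strands, with 272 bases between their RefSeq starts. GENCODE M21, used for the gene coordinates in the text, places some starts elsewhere: 250 of the 250 bases lie inside Mdh1 as GENCODE draws it and 220 inside Bckdha, and of the Hadhb stretch 160 lie inside Hadha and 5 inside Hadhb, while the Ehhadh stretch lies outside Ehhadh. Capitals mark CCAAT boxes, read on either strand (CCAAT or ATTGG).
Ehhadh, chr16:21787835-21788084, minus strand: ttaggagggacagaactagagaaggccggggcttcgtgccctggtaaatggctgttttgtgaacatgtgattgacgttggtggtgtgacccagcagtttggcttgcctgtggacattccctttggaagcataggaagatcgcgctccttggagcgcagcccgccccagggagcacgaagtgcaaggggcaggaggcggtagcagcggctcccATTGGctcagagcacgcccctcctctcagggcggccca
Bckdha, chr7:25658762-25659011, minus strand: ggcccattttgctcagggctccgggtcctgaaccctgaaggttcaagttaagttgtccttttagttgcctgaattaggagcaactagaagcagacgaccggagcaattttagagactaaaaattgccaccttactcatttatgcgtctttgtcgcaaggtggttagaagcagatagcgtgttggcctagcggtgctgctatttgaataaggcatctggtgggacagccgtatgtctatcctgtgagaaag
Mdh1, chr11:21571935-21572184, minus strand: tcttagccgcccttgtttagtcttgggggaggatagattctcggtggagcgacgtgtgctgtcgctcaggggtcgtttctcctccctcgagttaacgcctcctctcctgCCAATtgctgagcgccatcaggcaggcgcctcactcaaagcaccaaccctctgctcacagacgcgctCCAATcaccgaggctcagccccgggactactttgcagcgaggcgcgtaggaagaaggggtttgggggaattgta
Hadhb, chr5:30155003-30155252, plus strand: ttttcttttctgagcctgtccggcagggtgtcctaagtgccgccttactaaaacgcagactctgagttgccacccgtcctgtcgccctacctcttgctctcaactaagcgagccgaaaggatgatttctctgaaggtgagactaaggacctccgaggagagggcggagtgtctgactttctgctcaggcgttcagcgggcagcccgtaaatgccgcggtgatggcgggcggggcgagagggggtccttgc

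A CCAAT box occurred in the windows of 23 of the 43 genes (53.5%), against 41.1% of the 27025 genes with such a window. Mdh1 has 2 and Ehhadh 1 in the stretch shown, and Bckdha and Hadhb have none. The TATA box letters TATAAA occurred in 0 of the 43, against 15.7% of all genes. The median GC content of the windows was 60.7%, where that of all windows was 52.7%. The palindromic GC-rich motif of NRF1, a regulator of nuclear genes for mitochondria, occurred in 4 of 43 (9.30%; all genes 5.19%), in Dld, Etfb, Etfdh and Sucla2. The nuclear receptor core motif AGGTCA occurred in 10 of 43 (23.3%; all genes 18.1%), among them Cpt1a, Acadm, Acadvl and Pcx. AGGTCA repeated in the same direction with 1 base between, the form that PPAR and RXR bind together, and AGGTCA preceded by TCA both contain that core; each occurred in 0 of the 43, against 0.0480% and 0.466% of all genes. All motifs were searched on both strands, a match is letters only, and enhancers outside these windows were not searched.

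Summed over the 47 genes, the level was 8295, 7332, 8337 and 7476 summed CPM across control replicates 1 to 4 and 7928, 6711, 6411 and 7087 across knockout replicates 1 to 4. Knockout replicate 1 lay inside the control range, and the other 3 knockout libraries lay below every control library. The group means were 7860 ± 529.9 and 7034 ± 657 summed CPM (SD, n = 4), the knockout mean being 89.5% of the control mean. Within the knockout group, replicate 1 held the highest value for 29 of the 46 tested genes and replicate 3 the lowest for 19. Within the control group, replicates 3 and 1 held the highest value for 20 and 19 genes, and replicate 4 the lowest for 24. Libraries of the same genotype differed from each other over many of these genes at once.

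The 10 white adipocyte markers summed to 79037, 60718, 73432 and 62123 summed CPM across control replicates 1 to 4 and 75700, 64665, 51196 and 56050 across knockout replicates 1 to 4. As with the oxidation genes, knockout replicate 1 was the highest knockout library and replicate 3 the lowest, and the genotypes overlapped. Car3, Fabp4 and Cfd had the highest levels of the 10 markers and made up most of that sum. Of the 10 markers 8 had a log2 fold change below 0, with a median of -0.10. Only Retn separated the genotypes, at 2037 to 2753 CPM among controls and 1367 to 1714 CPM among knockouts. Its log2 fold change was -0.65 (edgeR adjusted p = 0.0731), and 1.74% of all tested genes were lower without overlap. The 10 macrophage markers lay at 806 to 911 summed CPM among controls and 1280 to 1552 among knockouts, without overlap in the sum. All 10 were higher on average, and 3 passed an adjusted p of 0.05 (Lyz2, Cd68 and Gpnmb), where 15 of all 12480 tested genes were higher at that threshold. Singly, 7 of the 10 were higher without overlap (2.48% of all tested genes), while Mrc1, C1qa and C1qb overlapped. Summed endothelial, fibroblast, mesothelial, lymphocyte, blood, skeletal muscle and brown adipocyte markers overlapped between genotypes. In bulk tissue, fewer cells of a type and less RNA per cell cannot be told apart. The part of adipocyte content, macrophage content and the mitochondrial share in the values of the oxidation genes was not tested.

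**Figure D2:**
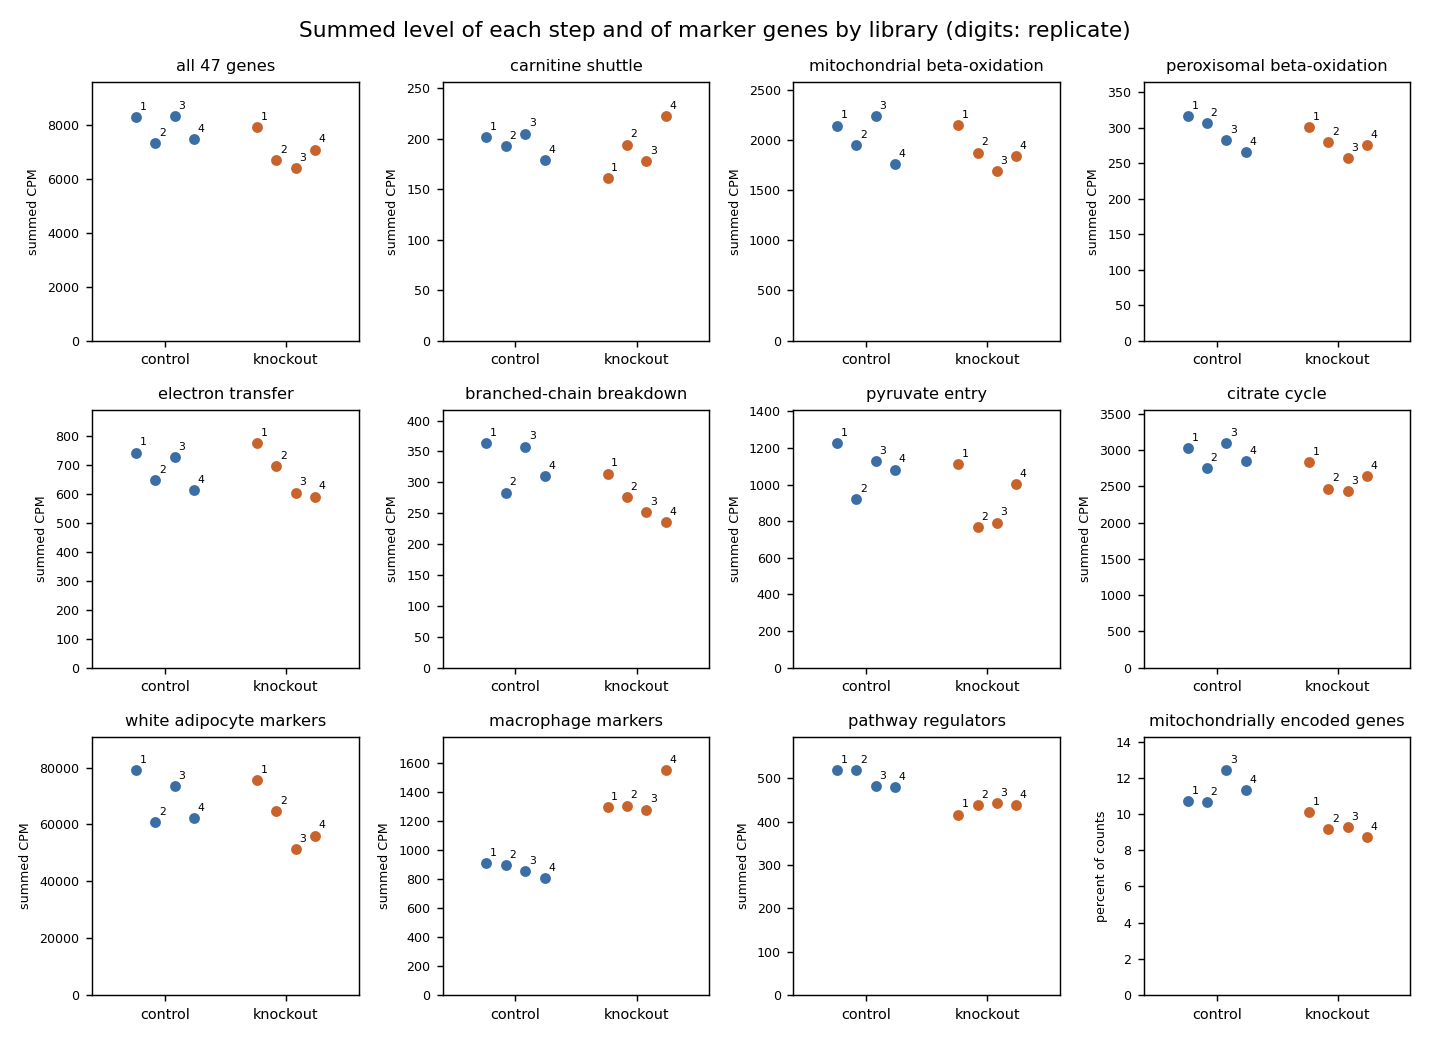
Summed CPM of all 47 genes and of 7 of their steps, of 3 lists beside them, and the percent of counts on mitochondrially encoded genes (y axes, from 0) in each control (blue) and knockout (orange) library; digits give the replicate. The macrophage and regulator sums and the mitochondrial share separate the genotypes, though no single regulator does. The sum over the 47 genes overlaps through knockout replicate 1.

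The carnitine shuttle was measured through 4 genes. Cpt1a encodes the outer-membrane carnitine palmitoyltransferase of liver and most tissues, the rate-controlling step of fatty acid entry that malonyl-CoA inhibits. It was at 52.4, 68.6, 56.96 and 46.2 CPM in control replicates 1 to 4 and 39.8, 63.3, 65.2 and 99.04 CPM in knockout replicates 1 to 4. Knockout replicate 4 was the highest of the 8 and knockout replicate 1 the lowest, so the genotypes overlapped, with a log2 fold change of 0.26 (standard error 0.23; edgeR adjusted p = 0.931). The sign rested on replicate 4: without it the log2 fold change was -0.00022.

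The muscle and brown fat isoform Cpt1b was close to the detection limit, at 4, 12, 4 and 2 estimated counts across control replicates 1 to 4 and 3, 0, 2.21 and 15 across knockout replicates 1 to 4, and was not tested. The reads of Cpt1b may be uncertain, since 2685 of its 3368 transcript words of 31 bases also occur in the overlapping gene Gm44502. Here and below such words were counted over whole transcripts, and where along them the oligo-dT-primed reads fell was not tested. Per library size, control replicate 2 and knockout replicate 4 were highest, at 5.02 and 4.92 CPM. The 7 skeletal muscle markers lay at 51.9 to 82.1 summed CPM among controls and 79.5 to 126 among knockouts. Myh4 was at 13.3 and 12.5 CPM in knockout replicates 2 and 4 and at no more than 3.14 CPM elsewhere. Tnnt3 was at 5.24 and 10.2 CPM in the same replicates and at no more than 0.897 CPM elsewhere. Acta1, Ckm and Mylpf were also highest in these replicates, while Myh1 and Myl1 were not. The part of the muscle markers in the Cpt1b values was not tested. Ucp1, the defining gene of brown and beige adipocytes, was at no more than 0.916 CPM in any library, below the limit that a count of 0 allows. Slc25a20, the carrier that exchanges acylcarnitine for carnitine across the inner membrane, was at 66.7, 69.5, 88.8 and 64.1 CPM in control replicates 1 to 4 and 56.3, 73.02, 52.4 and 53.1 CPM in knockout replicates 1 to 4. Knockout replicate 2 lay among the controls and the other 3 knockout libraries below them all, with a log2 fold change of -0.30 (standard error 0.15; edgeR adjusted p = 0.810). Without control replicate 3 it was -0.19. Cpt2, which restores acyl-CoA in the matrix, averaged 63.8 ± 13.7 CPM for controls and 61.5 ± 3.55 CPM for knockouts (SD, n = 4; log2 fold change -0.06, 95% interval -0.38 to 0.27).

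All 11 genes of mitochondrial beta-oxidation had a log2 fold change below 0, from -0.38 to -0.01, with a median of -0.10, and 1 of the 11, Acads, had an unadjusted p under 0.05. The 4 acyl-CoA dehydrogenases, which start each round and differ in the chain length they accept, had log2 fold changes between those of Acads and Acadl. Acads, for short chains (chromosome 5, 115110299 to 115119346, coordinates here and below being GRCm38), was at 45.4, 38.1, 59.2 and 41.03 CPM in control replicates 1 to 4 and 33.9, 32.7, 32.2 and 42.3 CPM in knockout replicates 1 to 4. Knockout replicates 1 to 3 lay below all controls and knockout replicate 4 among them, with a log2 fold change of -0.38 (standard error 0.17; edgeR adjusted p = 0.747). Without control replicate 3, the highest library, the log2 fold change was -0.23 and the unadjusted p was no longer under 0.05. Acadvl, for very long chains, was at 138, 121, 128 and 137 CPM in control replicates 1 to 4 and 132, 124, 97.7 and 109.5 CPM in knockout replicates 1 to 4, with a log2 fold change of -0.18 (standard error 0.12; edgeR adjusted p = 0.910); knockout replicates 3 and 4 lay below the controls and replicates 1 and 2 within their range.

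For Acadm (medium chains) and Acadl (long chains) the log2 fold changes were -0.10 and -0.01, with 95% intervals of -0.35 to 0.14 and -0.25 to 0.22. These intervals bound any mean difference but do not show that the genotypes were alike. Acadm was at 327 to 431 CPM and Acadl at 159 to 204 CPM over the 8 libraries.

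Hadha and Hadhb encode the subunits of the mitochondrial trifunctional protein, which carries out the later reactions of each round on long chains. Hadha was at 121, 100.004, 124 and 129 CPM in control replicates 1 to 4 and 119, 109, 107 and 109.9 CPM in knockout replicates 1 to 4, and the genotypes overlapped (-0.09 log2 fold change, 95% interval -0.34 to 0.15). Hadhb was at 206, 183, 218 and 161 CPM in control replicates 1 to 4 and 204, 165, 140.03 and 185 CPM in knockout replicates 1 to 4, with a log2 fold change of -0.15 and a 95% interval of -0.44 to 0.14. Of the 6698 transcript words of Hadhb, 1562 also occur in other genes of the table, 1305 of them in Gm13910, so its reads may be divided with such copies. The matching enzymes for shorter chains are the hydratase Echs1, the dehydrogenase Hadh and the thiolase Acaa2. Their log2 fold changes were -0.03, -0.05 and -0.15, and each had overlapping genotypes. Echs1 stood higher in replicate 1 of both genotypes, at 215 CPM for the control and 218 CPM for the knockout library, than in the other 6, which lay between 147 and 166 CPM. Eci1 and Decr1, which prepare the double bonds of unsaturated fatty acids, had log2 fold changes of -0.10 and -0.20. Eci1 varied most of the 11 genes within the knockout group, from 102 CPM in replicate 4 to 201 CPM in replicate 1.

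The lowest log2 fold change of the set belonged to a peroxisomal gene. Ehhadh (chromosome 16, 21761287 to 21787807) encodes the peroxisomal bifunctional enzyme, a hydratase and dehydrogenase known as a target of the fatty acid receptor PPARα. It was at 25.5, 15.1, 21.1 and 12.2 CPM in control replicates 1 to 4 and 5.95, 13.3, 7.37 and 7.21 CPM in knockout replicates 1 to 4. Knockout replicates 1, 3 and 4 lay below all controls, and knockout replicate 2 lay above control replicate 4. The means were 18.5 ± 5.99 CPM for controls and 8.46 ± 3.30 CPM for knockouts (SD, n = 4), with a log2 fold change of -1.14 (standard error 0.32; edgeR adjusted p = 0.363). Few counts lay behind each Ehhadh value (13 to 73 estimated counts per library).

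The other peroxisomal genes had log2 fold changes from -0.20 to 0.14, and their difference from Ehhadh was not tested. The thiolase gene Acaa1a was at 114, 107, 95.1 and 77.6 CPM in control replicates 1 to 4 and 97.5, 79.9, 92.3 and 74.8 CPM in knockout replicates 1 to 4 (log2 fold change -0.20, 95% interval -0.50 to 0.10). Its paralogue Acaa1b was at 38.1, 63.2, 56.96 and 35.3 CPM in control replicates 1 to 4 and 51.7, 55.3, 43.1 and 63.6 CPM in knockout replicates 1 to 4 (log2 fold change 0.14, 95% interval -0.27 to 0.55). Acaa1b has 1932 transcript words and shares 773 with Acaa1a, so how the authors' counting split reads between them is uncertain, and both genes overlapped between genotypes. The isomerase gene Eci2, whose product is found in peroxisomes and mitochondria, had a log2 fold change of 0.03.

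Electrons from the acyl-CoA dehydrogenases pass to the electron transfer flavoprotein and on to ubiquinone. The flavoprotein genes Etfa and Etfb had log2 fold changes of -0.04 and 0.04, with 95% intervals of -0.29 to 0.21 and -0.29 to 0.36. Of the 1244 transcript words of Etfb, 589 also occur in Gm45233, so its reads may be uncertain, although its estimated counts were whole in every library except knockout replicate 1. Etfdh, the dehydrogenase that reduces ubiquinone, averaged 78.2 ± 3.44 CPM for controls and 66.5 ± 9.04 CPM for knockouts (SD, n = 4; log2 fold change -0.23, 95% interval -0.50 to 0.04). Knockout replicates 1 to 3 lay below every control library for Etfdh and replicate 4 lay among them.

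Branched-chain amino acids are a carbon source for adipocytes, and all 3 genes of their breakdown in the set had a log2 fold change below 0. Bckdha (chromosome 7, 25629946 to 25658981) encodes the alpha subunit of the branched-chain ketoacid dehydrogenase, the committed step of the pathway. It was at 120.2, 92.5, 105 and 105 CPM in control replicates 1 to 4 and 81.5, 85.1, 78.4 and 76.7 CPM in knockout replicates 1 to 4. Every knockout library lay below every control library. The means were 106 ± 11.3 CPM for controls and 80.4 ± 3.70 CPM for knockouts (SD, n = 4), with a log2 fold change of -0.40 (standard error 0.12; edgeR adjusted p = 0.423). Only Bckdha and Mdh1 separated the genotypes without overlap, 2 of 46 (4.35%) against 1.74% of all tested genes that were lower without overlap. No gene of the set was higher without overlap, against 2.48% of all tested genes.

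Bcat2, the mitochondrial aminotransferase that precedes this step, was at 203, 156, 220.2 and 174 CPM in control replicates 1 to 4 and 189.6, 157, 147 and 134 CPM in knockout replicates 1 to 4. Knockout replicates 3 and 4 lay below all controls, and replicates 1 and 2 within their range, with a log2 fold change of -0.27 (standard error 0.14; edgeR adjusted p = 0.816). Bckdhb, the beta subunit of the same dehydrogenase as Bckdha, was at 24.9 to 43.04 CPM with a log2 fold change of -0.12 and a 95% interval of -0.53 to 0.29. The highest Bckdhb library of the 8 was knockout replicate 1. Whether the subunits Bckdha and Bckdhb differed from each other was not tested.

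Pyruvate enters the cycle as acetyl-CoA through the pyruvate dehydrogenase complex or as oxaloacetate through pyruvate carboxylase. The 4 genes of the complex had log2 fold changes of -0.26 for Pdha1, -0.25 for Pdhb, -0.24 for Dlat and -0.23 for Dld, and none had an unadjusted p under 0.05. Pdha1, the regulated decarboxylase subunit, was at 201, 190.4, 239 and 187 CPM in control replicates 1 to 4 and 200.1, 139.6, 159 and 185 CPM in knockout replicates 1 to 4. Knockout replicates 2, 3 and 4 lay below all controls and replicate 1 among them, with a log2 fold change of -0.26 (standard error 0.13; edgeR adjusted p = 0.816). Dlat, the acetyltransferase core, was at 88.04, 90.8, 95.5 and 95.5 CPM in control replicates 1 to 4 and 80.6, 60.9, 80.7 and 89.2 CPM in knockout replicates 1 to 4. Its controls lay close together and only knockout replicate 4 overlapped them, with a log2 fold change of -0.24 (standard error 0.13; edgeR adjusted p = 0.816), or -0.14 without knockout replicate 2. Dld, the lipoamide dehydrogenase that the complexes for pyruvate, oxoglutarate and branched-chain ketoacids share, was at 172, 158, 173 and 139.8 CPM in control replicates 1 to 4 and 153, 136, 126 and 135 CPM in knockout replicates 1 to 4. Knockout replicate 1 alone lay above the lowest control, with a log2 fold change of -0.23 (standard error 0.11; edgeR adjusted p = 0.812). For Pdhb, 622 of 3993 transcript words also occur in Gm6123.

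Pcx, pyruvate carboxylase, was at 532, 346, 436 and 482 CPM in control replicates 1 to 4 and 484, 265, 309.9 and 435 CPM in knockout replicates 1 to 4. Both genotypes ranged widely and overlapped, with a log2 fold change of -0.27 (standard error 0.19; edgeR adjusted p = 0.912). The log2 fold change was -0.13 without knockout replicate 2, -0.17 without control replicate 1 and -0.41 without knockout replicate 1. Pdk4, the kinase that switches the pyruvate dehydrogenase complex off and is known to rise with fasting, had the widest interval of the set. It was at 65.3, 17.2, 39.02 and 17.3 CPM in control replicates 1 to 4 and 57.2, 48.01, 11.2 and 22.6 CPM in knockout replicates 1 to 4. Control replicate 1 and knockout replicates 1 and 2 were high and the rest lower, and the means were 34.7 ± 22.9 CPM for controls and 34.8 ± 21.5 CPM for knockouts (SD, n = 4). The log2 fold change was -0.05 with a 95% interval of -1.56 to 1.46, so a sizeable difference in either direction remained possible at this spread.

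**Figure D3:**
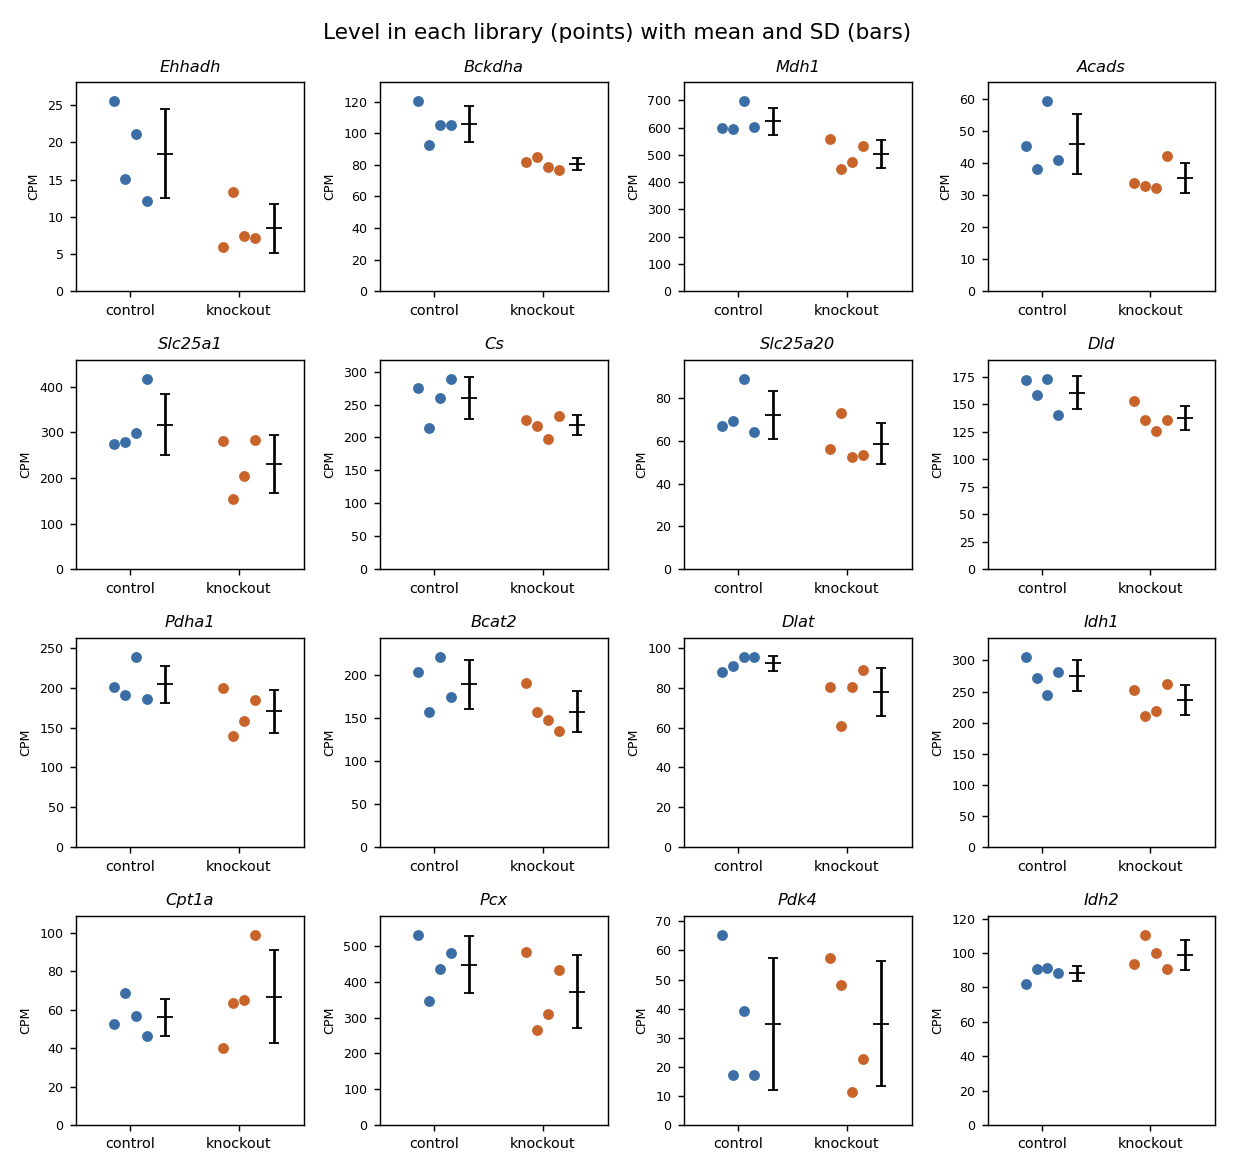
CPM (y axes, from 0) of 16 genes in each of 4 control (blue) and 4 knockout (orange) libraries, with mean and SD in black. Bckdha and Mdh1 separate the genotypes, Ehhadh overlaps in 1 knockout library, and Pdk4 spreads as widely within a genotype as between them.

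Of the 15 citrate cycle genes, 12 had a log2 fold change below 0, with a median of -0.18, and the summed level was 3024, 2753, 3094 and 2847 summed CPM across control replicates 1 to 4 and 2828, 2467, 2431 and 2637 across knockout replicates 1 to 4. Knockout replicates 2, 3 and 4 lay below all controls in that sum and replicate 1 among them. Cs, citrate synthase, which joins acetyl-CoA to oxaloacetate, was at 275, 215, 260.1 and 288 CPM in control replicates 1 to 4 and 226, 217, 197 and 233 CPM in knockout replicates 1 to 4. The genotypes overlapped through control replicate 2, with a log2 fold change of -0.25 (standard error 0.12; edgeR adjusted p = 0.777).

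Mdh1 (chromosome 11, 21556787 to 21572367) encodes the cytosolic malate dehydrogenase, part of the shuttle that moves reducing equivalents into mitochondria. It was at 598, 594, 697 and 604 CPM in control replicates 1 to 4 and 559, 448, 474 and 532 CPM in knockout replicates 1 to 4. Every knockout library lay below every control library. The means were 623 ± 49.2 CPM for controls and 503 ± 50.8 CPM for knockouts (SD, n = 4), with a log2 fold change of -0.31 (standard error 0.12; edgeR adjusted p = 0.669). Its mitochondrial counterpart Mdh2 overlapped between genotypes, at 227 to 315 CPM among controls and 217 to 302 CPM among knockouts (log2 fold change -0.13, 95% interval -0.42 to 0.16).

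The isocitrate dehydrogenases lay on both sides of 0. Idh1, the cytosolic and peroxisomal enzyme that makes NADPH, was at 305, 271, 244 and 281 CPM in control replicates 1 to 4 and 253, 211, 219 and 262 CPM in knockout replicates 1 to 4. Knockout replicates 2 and 3 lay below all controls and replicates 1 and 4 among them, with a log2 fold change of -0.22 (standard error 0.12; edgeR adjusted p = 0.816). Idh2, the mitochondrial NADPH-forming enzyme, had a log2 fold change of 0.16 with a 95% interval of -0.08 to 0.40, the highest of the cycle. The NAD-dependent enzyme of the cycle itself has 3 kinds of subunit, with log2 fold changes of -0.27 for Idh3a, -0.13 for Idh3b and -0.18 for Idh3g. Idh3a, the catalytic subunit, was at 165, 138, 192 and 154 CPM in control replicates 1 to 4 and 155, 136, 102 and 145 CPM in knockout replicates 1 to 4. Knockout replicate 3 stood lowest and knockout replicates 1 and 4 lay within the control range, with a log2 fold change of -0.27 (standard error 0.14; edgeR adjusted p = 0.828). It was -0.16 without knockout replicate 3 and -0.17 without control replicate 3. Whether Idh1 and Idh2 differed from each other was not tested.

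Ogdh, the decarboxylase of the oxoglutarate dehydrogenase complex, was at 238, 213, 247 and 241 CPM in control replicates 1 to 4 and 218, 211, 208 and 243 CPM in knockout replicates 1 to 4. The genotypes overlapped, with a log2 fold change of -0.09 and a 95% interval of -0.32 to 0.13. Dlst, the transferase core of that complex, had a log2 fold change of -0.18. Succinyl-CoA ligase pairs the alpha subunit Suclg1 (-0.18) with a GTP-forming beta subunit, Suclg2 (0.05), or an ATP-forming one, Sucla2 (0.04), values being log2 fold changes. Of the 4536 transcript words of Suclg2, 910 also occur in Gm15163. Fumarase, Fh1, and the cytosolic aconitase Aco1, which doubles as an iron-regulatory protein, had log2 fold changes of -0.12 and -0.19. These 6 genes overlapped between genotypes, with 95% intervals that all spanned 0.

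Slc25a1 (chromosome 16, 17925223 to 17928219) encodes the carrier that exports citrate from mitochondria for fatty acid synthesis. It was at 275, 279, 299 and 417 CPM in control replicates 1 to 4 and 281, 154, 205 and 282 CPM in knockout replicates 1 to 4. Control replicate 4 was highest and knockout replicates 2 and 3 lowest, while knockout replicates 1 and 4 lay at the level of the other controls. The means were 317 ± 67.1 CPM for controls and 231 ± 62.7 CPM for knockouts (SD, n = 4), with a log2 fold change of -0.46 (standard error 0.20; edgeR adjusted p = 0.764). Without control replicate 4 the log2 fold change was -0.30. A list of genes of fatty acid synthesis, the pathway that this citrate supplies, also held its regulators and Pnpla3. In it 13 of 13 tested had a log2 fold change below 0 (50.3% of all tested genes), with a median of -0.43. Acaca, Srebf1 and Pnpla3 were the 3 at an unadjusted p under 0.05 (2.87% of all tested genes were lower at that level), and 0 passed the adjusted threshold. Acly, Acacb and Me1 of this list also stand among the 90 genes below.

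**Figure D4:**
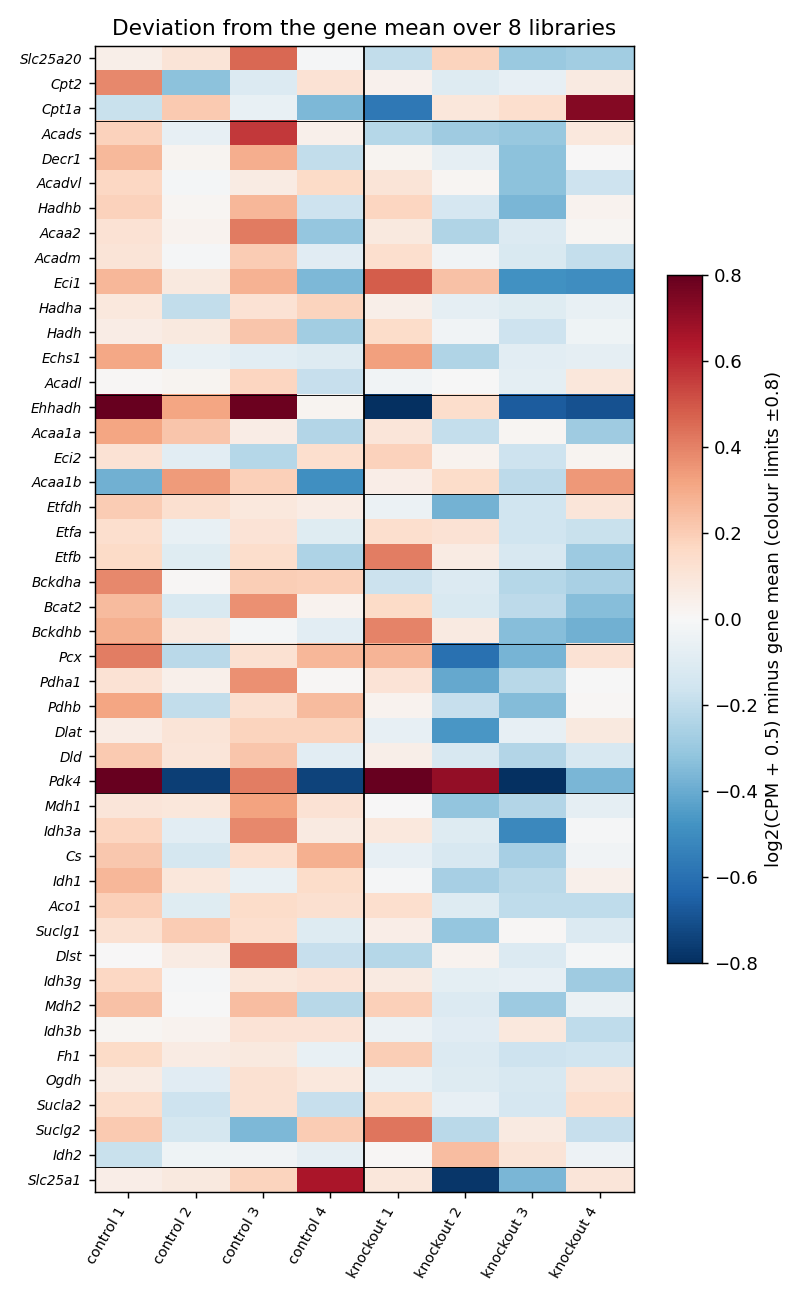
Deviation of log2(CPM + 0.5) from the gene's mean over the 8 libraries for the 46 tested genes (rows, grouped by step) in 4 control and 4 knockout libraries (columns); red is above and blue below the mean, with colours capped at 0.8. Above the mean lie 43 of 46 genes in control replicate 1 and 38 in control replicate 3, against 33 in knockout replicate 1 and 6 in knockout replicate 3.

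The wider pathway was read from 90 further genes for fatty acid activation, ketone metabolism, peroxisomal oxidation, branched-chain breakdown, pyruvate handling, the rest of the cycle and their regulators. Of these 88 were tested and 0 passed the adjusted threshold. The median of their log2 fold changes was -0.12, 65 of 88 lay below 0 (50.3% of all tested genes), and at an unadjusted p under 0.05 9 were lower and 2 higher, where 2.87% and 3.52% of all tested genes were. The 3 lower genes with the smallest p were Sdhd, a membrane anchor of succinate dehydrogenase, at a log2 fold change of -0.51 (adjusted p = 0.498), Mpc2, a subunit of the mitochondrial pyruvate carrier, at -0.42 (adjusted p = 0.557), and the peroxisomal thiolase gene Scp2 at -0.40 (adjusted p = 0.678), p-values being edgeR's.

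Among the higher genes of the wider pathway was a regulator of branched-chain breakdown. Ppm1k, the phosphatase that activates the branched-chain ketoacid dehydrogenase, was at 20.96, 15.5, 17.04 and 13.5 CPM in control replicates 1 to 4 and 24.7, 28.2, 23.7 and 22.3 CPM in knockout replicates 1 to 4 (log2 fold change 0.54, edgeR adjusted p = 0.636). Every knockout library lay above every control library for Ppm1k, the reverse of Bckdha. Of the 88 tested genes of the wider pathway 2 were higher and 0 lower without overlap, where 2.48% and 1.74% of all tested genes were. Bckdk, the kinase that opposes Ppm1k, had a log2 fold change of -0.28 (adjusted p = 0.775) by edgeR, chosen here after its value was seen. Any relation between the values of Ppm1k, Bckdk and Bckdha was not tested.

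Among regulators of oxidation genes, all 10 tested had a log2 fold change below 0 (50.3% of all tested genes). Their median was -0.18, and none had an unadjusted p under 0.05. Their summed level was 479.5 to 519 summed CPM among controls and 417 to 443 among knockouts, without overlap. Taken singly, each of the 10 regulators overlapped between genotypes. Pparg and Rxra, the receptor pair that drives adipocyte genes, made up most of that sum, with log2 fold changes of -0.23 (adjusted p = 0.802) and -0.15 (adjusted p = 0.922) by edgeR. Ppara, the receptor for which Ehhadh is a known target, was at 5.86 to 11.2 CPM among controls and 5.04 to 14.1 CPM among knockouts, so the genotypes overlapped.

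Lists of other mitochondrial genes showed medians on the same side of 0. The 76 tested nuclear genes of the respiratory chain centred on a log2 fold change of -0.15 (median), and 69 of the 76 lay below 0. The 13 protein-coding genes of the mitochondrial genome had a median of -0.27, and 11 of the 13 lay below 0. The oxidation and citrate cycle genes, at -0.16, lay close to the nuclear respiratory genes, and whether any of these lists differed from another was not tested. Some genes, such as Sdhd, stand both among the respiratory genes and among the 90 above. The median of the oxidation and citrate cycle genes was -0.16 when the mitochondrially encoded genes were left out of the fit. The TMM factors were computed anew in that setting, so it cannot show what part the mitochondrial share had, which was not tested.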

How the data were processed

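RNA was profiled in 8 libraries, 4 control and 4 knockout, by BRB-seq, primed with oligo-dT, per the labels' protocols. The deposited table holds estimated counts per gene without normalization; Salmon and GRCm38 are named in the submitters' processing notes, while versions, annotation and any use of molecular identifiers are not given in the sources used here. Of values above 0, 59.6% were whole. Estimated counts were rounded and tested with edgeR 4.0.16 (R 4.3.3): TMM factors, filterByExpr (12480 genes left), robust quasi-likelihood F test, genotype as the only term, Benjamini-Hochberg adjustment over all tested genes, threshold 0.05. The count test, planned for counts, was kept for estimated counts. Identifiers were matched without version to GENCODE M21 (GRCm38), 34652 of 34866, the source of coordinates. Of 2 identifiers with 1 symbol the one with more counts was used. Within-group pairs of libraries differed by more than sampling noise (chi-square per degree of freedom 4.48 to 9.40). The low-count limit of 3 counts covers counting error only.

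The genes and lists were chosen with earlier results of these data known. Values in all libraries are given for the 12 tested genes with the smallest p and for a list of key enzymes; other lists name genes past the threshold or the 3 with the smallest p each way. Alternatives were RLE and upper-quartile factors, mitochondrially encoded genes left out, no low-count filter, DESeq2 1.42.0, limma-voom (limma 3.58.1) with quality weights, the replicate number as a block, and each library left out. Exact permutation tests used scipy 1.17.1. The edgeR test was first tested on simulated data, whose changed genes differed by more than any gene of the set except Ehhadh. How well it finds smaller changes was not tested. CCAAT and TATA boxes were added to the motif search after the table had been seen. The planned comparison of protein sequences was not made, and 2 genes that the naming rule selects are not reported here.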

Additional observations from a re-analysis of the deposited data

Results flagged for a closer look

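Single libraries were looked for whose distance from the next value, relative to the range of their genotype, passed Dixon's 95% critical value. This was met in 6 of 114 sets of 4 values, and chance alone gives about 1 in 20, or 5.7. Mdh1 was at 697 CPM in control replicate 3 and between 594 and 604 CPM in the remaining 3 control libraries. Without control replicate 3 the log2 fold change of Mdh1 was -0.25, and Mdh1 no longer had an unadjusted p under 0.05. Slc25a1 was at 417 CPM in control replicate 4 and between 275 and 299 CPM in the remaining 3 control libraries; without that library its log2 fold change was -0.30 and the unadjusted p was no longer under 0.05. Acads was at 42.3 CPM in knockout replicate 4 and between 32.2 and 33.9 CPM in the remaining 3 knockout libraries. Fh1 was at 154 CPM in knockout replicate 1 and between 120.2 and 125 CPM in the remaining 3 knockout libraries. Echs1 was at 215 CPM in control replicate 1 and between 162 and 166 CPM in the remaining 3 control libraries. Cpt1b was at 5.02 CPM in control replicate 2 and between 1.28 and 1.79 CPM in the remaining 3 control libraries, which is 12 estimated counts against 2 to 4.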

How the results depend on the processing

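No gene of the set passed an adjusted p of 0.05 under any of the 15 alternatives; the smallest adjusted p was 0.0901, without the low-count filter. The median log2 fold change of the set lay between -0.23 and -0.12 with any 1 library omitted and between -0.17 and -0.16 under the other alternatives. The number of genes of the set with an unadjusted p under 0.05, 5 with all libraries, was 9 with limma-voom and 2 to 11 on omitting a library. The share of all tested genes at that level was not taken under the alternatives. Over all tested genes the count past the adjusted threshold, 21, was 58 without the low-count filter, 55 with DESeq2 and 4 to 43 on omitting a library. With the replicate number as a block it was 6, while 5 genes of the set had an unadjusted p under 0.05, with Pcx in place of Acads. Libraries with the same number correlated, in their deviations from the genotype mean, at 0.25, -0.06, -0.01 and -0.24. Control replicate 1 correlated with knockout libraries of other numbers at -0.32 to 0.12, and control replicate 4 at -0.16 to 0.25. So few values cannot show whether libraries with the same number were paired, and the labels give only the number. Of 330 values for single named genes, 325 kept their direction and 5 reversed, all when 1 library was left out: Pdk4 ranged from -0.39 to 0.47 and Cpt1a from -0.00022 to 0.43. For 14 of the 22 named genes, omitting some library moved the log2 fold change by over 1.5 times or turned it; besides those given in the report these were Acadvl (-0.10 without knockout replicate 3), Hadha, Hadhb, Ogdh, Acaa1a and Acaa1b, which ranged from 0.03 to 0.29. Ehhadh, Bckdha, Mdh1, Cs, Dld, Pdha1, Bcat2 and Idh1 moved by less. The cause of these changes was not tested. At this depth Cpt1b did not pass the low-count filter.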
